A study of Drosophila melanogaster with 2 samples.

Results

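The mitochondrial ribosomal protein genes are the fly genes that encode the protein components of the ribosome inside mitochondria. They were chosen by name: every gene of Ensembl release 115 whose symbol is mRpL or mRpS followed by a digit. The rule found 73 genes, 47 for the large subunit (mRpL) and 26 for the small subunit (mRpS), all protein-coding, of 18164 genes used and 13945 protein-coding genes. They are spread over 3R (21 genes), 3L (17), 2R (12), 2L (12) and X (11). A single transcription start is annotated for 67 of them.

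The mitochondrial ribosome translates the few messenger RNAs of the mitochondrial genome, which encode subunits of the respiratory chain and of ATP synthase. Its ribosomal RNAs come from mitochondrial DNA, whereas its proteins are encoded in the nucleus, made in the cytosol and imported. Some of these proteins have counterparts in bacterial ribosomes and others are found only in mitochondria.

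The data are ChIP-seq peak lists for CG34376, an annotated fly gene whose product was immunoprecipitated as a fusion to green fluorescent protein at its C terminus. The chromatin came from whole embryos of both sexes, 0 to 24 h old, of a transgenic line that makes the fusion, and was sonicated to fragments of 200 to 800 bp. The 2 libraries are biological replicates 2 and 3 of 1 group, so no groups could be compared, and whole embryos mix all cell types. A free-text label calls the libraries input controls, whereas the assay title and the antibody field name a transcription factor ChIP, and they were treated as immunoprecipitated. Both replicates were set against 1 control file.

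Each replicate list and the pooled list hold 30000 candidate peaks, and the thresholded list holds the 7025 pooled candidates of highest signal, from 163 to 3316 in the authors' units with a median of 252. Ranks count from 1 for the strongest peak of a list, and signals are compared only within a list. For each gene and replicate the rank is that of the strongest candidate within 500 bp of a start. Its summit can differ between lists. A gene is called bound here when the summit of a thresholded peak lies no more than 500 bp from a start of the gene; a single peak may therefore count for more than 1 gene. The promoter of CG34376 itself had a summit 21 bp upstream of its start with a signal of 1355 and rank 40.

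CG34376-GFP peaks lay at 36 of the 73 mitochondrial ribosomal protein genes, a share of 49.3% (95% Wilson interval 38.2 to 60.5%, counting error only). Among all protein-coding genes 30.1% were bound, and among all genes used 25.6%. The direction depends on how a summit is assigned: counted only for the gene with the nearest start, 9 of the 73 genes were bound (12.3%), against 23.7% of protein-coding genes. With only the upper 3512 thresholded peaks the shares were 17.8%, against 16.6%. The 36 genes had 36 distinct peaks, so none shared a peak with another gene of the set. A pooled candidate lay within 500 bp of a start for 69 of the 73 genes (94.5%), against 60.4% of protein-coding genes. Among genes with such a candidate, 36 of 69 (52.2%) were bound, against 49.7% of protein-coding genes, so the shares lay 2.4 percentage points apart once a candidate was required. Genes with several starts have more chances to be counted; with 1 start, 32 of 67 (47.8%) of the mitochondrial ribosomal protein genes were bound, against 23.0% of protein-coding genes.

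Most of the bound genes share their promoter region with a gene on the opposite strand. Such head-to-head pairs, with an opposite-strand start at most 500 bp upstream, included 53 of the 73 genes (72.6%), with a median gap of 264 bp, against 4134 protein-coding genes (29.6%), with a median gap of 242 bp. Of the 36 bound genes 33 were in such pairs. The spans between the starts of 4 of these pairs, the strongest on 2L, 3L and 3R with the summit between the starts that are short enough to show whole, are printed here because the peak sits in sequence that both genes share. They are read 5′ to 3′ on the strand of the mitochondrial ribosomal protein gene, from the neighbour's start to the gene's own start, with the 21 bases centred on the summit in capitals. The sequence is that of Release 6 of the fly genome, build dm6; mRpS10 is on the plus strand and the other 3 are on the minus strand.
mRpS10 to Art3, chr3R:15229409-15229664: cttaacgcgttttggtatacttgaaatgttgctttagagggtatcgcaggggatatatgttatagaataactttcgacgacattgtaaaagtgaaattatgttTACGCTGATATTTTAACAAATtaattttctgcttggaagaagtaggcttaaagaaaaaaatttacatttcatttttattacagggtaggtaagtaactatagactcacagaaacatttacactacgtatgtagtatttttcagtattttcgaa
mRpL24 to betaggt-I, chr2L:4945362-4945578: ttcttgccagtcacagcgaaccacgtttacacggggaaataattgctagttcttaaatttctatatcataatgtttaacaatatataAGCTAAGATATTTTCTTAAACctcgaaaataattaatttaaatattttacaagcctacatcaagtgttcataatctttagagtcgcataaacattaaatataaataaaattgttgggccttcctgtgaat
mRpL47 to CG8176 and Kdm3, chr3R:9515909-9516006: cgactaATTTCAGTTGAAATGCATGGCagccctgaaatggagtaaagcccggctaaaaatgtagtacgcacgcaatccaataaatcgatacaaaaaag
mRpS2 to Mon1, chr2L:4850420-4850640: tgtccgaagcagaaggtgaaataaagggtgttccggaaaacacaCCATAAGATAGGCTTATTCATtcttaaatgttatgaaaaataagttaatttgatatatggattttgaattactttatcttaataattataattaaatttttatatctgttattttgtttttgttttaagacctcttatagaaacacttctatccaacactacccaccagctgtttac
The summit lay at base 114 of 256 in the mRpS10 span, base 98 of 217 in the mRpL24 span, base 17 of 98 in the mRpL47 span and base 55 of 221 in the mRpS2 span, in each case nearer to the neighbour's start than to the gene's own. The motifs looked for on both strands were CGATA, then GATAA, then GAGAG, the repeat read by GAGA factor, then the E-box CACGTG, and Ohler motif 7, a core promoter motif given by name. CGATA occurred on the opposite strand at bases 42 to 46 of the mRpS10 span, before the summit. It also occurred at bases 86 to 90 of the mRpL47 span, and GATAA lay on the opposite strand at bases 118 to 122 of the mRpS2 span. None of the 5 was found in the mRpL24 span. The letters GATA or TATC stand within the capitals of 3 of the 4 spans. These letters were looked for after the sequences had been seen; within 10 bases of the summit they occurred at 6 of the 36 summits of the bound set (16.7%) and at 16.6% of the 3244 strongest summits of all bound protein-coding genes.

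In the small subunit 13 of 26 genes were bound (50%, interval 32.1 to 67.9%), with signals from 174 to 1683 and a median of 243. The strongest was mRpS10, which encodes a counterpart of bacterial ribosomal protein S10. Its peak had rank 27 and a signal of 827 in replicate 2, rank 16 and 849.9 in replicate 3, and rank 20 with 1683 in the pool. The summit lay 143 bp upstream of the mRpS10 start and 114 bp from the start of Art3, which encodes a protein arginine methyltransferase.

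The next small subunit gene, mRpS23, had rank 43 in both replicates, with signals of 717 in replicate 2 and 629 in replicate 3, and rank 39 with 1356 in the pool, directly ahead of the CG34376 promoter. Its summit lay 396 bp upstream of its own start and 96 bp from the start of CenG1A, which encodes an Arf GTPase-activating protein. After these 2 genes the pooled signal dropped to 353 for mRpS16, whose product also has a bacterial counterpart. At mRpS16 the strongest candidate of replicate 2 had rank 2148 (signal 175) and lay 186 bp upstream of the start. That of replicate 3 had rank 1480 (181) and lay 79 bp upstream. The pooled summit lay in the noncoding part of an exon of combgap (cg), a zinc-finger gene whose start was 89 bp away.

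For mRpS2 the ranks were 2281 (signal 170.0) in replicate 2 and 2023 (156) in replicate 3, with 343 in the pool, and the closest start was that of Mon1, a factor of endosome maturation, at 55 bp. For mRpS26, replicate 2 gave rank 1922 (signal 186) and replicate 3 rank 3205 (126), with 312 in the pool and CG13698 as the nearest neighbour. The small subunit genes were placed alike by both replicates: the same 13 genes lay among the 7025 highest candidates of replicate 2 and of replicate 3, and these are the 13 bound genes.

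In the large subunit 23 of 47 genes were bound (48.9%, interval 35.3 to 62.8%), with signals from 164 to 2149 and a median of 211. The strongest peak of the whole set was at mRpL41, a component with no bacterial counterpart. It had rank 10 (signal 1077) in replicate 2, rank 7 (1064) in replicate 3 and rank 9 (2149) in the pool. mRpL41 is 1 of only 3 bound genes without a head-to-head start within 500 bp, although that of CG8079 lay 762 bp upstream. The summit lay 138 bp upstream of the mRpL41 start and 440 bp from the next one, that of a long noncoding RNA gene, lncRNA:CR44463.

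At mRpL23, which encodes a counterpart of a bacterial protein at the exit of the ribosomal tunnel, the peak had rank 107 (signal 565) in replicate 2, rank 84 (520.5) in replicate 3 and rank 88 (1091) in the pool. The summit lay 60 bp downstream of a start, in the noncoding part of an exon of mRpL23. At mRpL24, whose product is another counterpart of a bacterial tunnel exit protein, the ranks were 797 (signal 274) in replicate 2 and 549 (267) in replicate 3, with 539 in the pool. The betaggt-I start, for a subunit of a protein prenyltransferase, was 98 bp from the mRpL24 summit and the mRpL24 start 120 bp.

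The next large subunit genes differed more between replicates. At mRpL53 the peak had rank 3013 (signal 148.5) in replicate 2 and rank 760 (236) in replicate 3, with 391 in the pool, and its summit lay in an intron of AGO1, the Argonaute of the microRNA pathway, 68 bp from an AGO1 start. At mRpL47 the ranks were 2491 (signal 164) in replicate 2 and 965 (215) in replicate 3, with 376 in the pool; the summit was 17 bp from a start that CG8176 shares with Kdm3, which encodes a histone demethylase. mRpL47 was the only one of the bound genes with a second thresholded summit, 302 bp upstream with a signal of 189.

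For mRpL34 the ranks were 3351 (signal 141) in replicate 2 and 1818 (164) in replicate 3, with 309 in the pool, and its neighbour is Dg, which encodes dystroglycan. For mRpL43 they were 2895 (151) in replicate 2 and 2719 (137) in replicate 3, with 293 in the pool. These 12 genes, 5 of the small and 7 of the large subunit, are those with the highest signal.

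**Figure D1:**
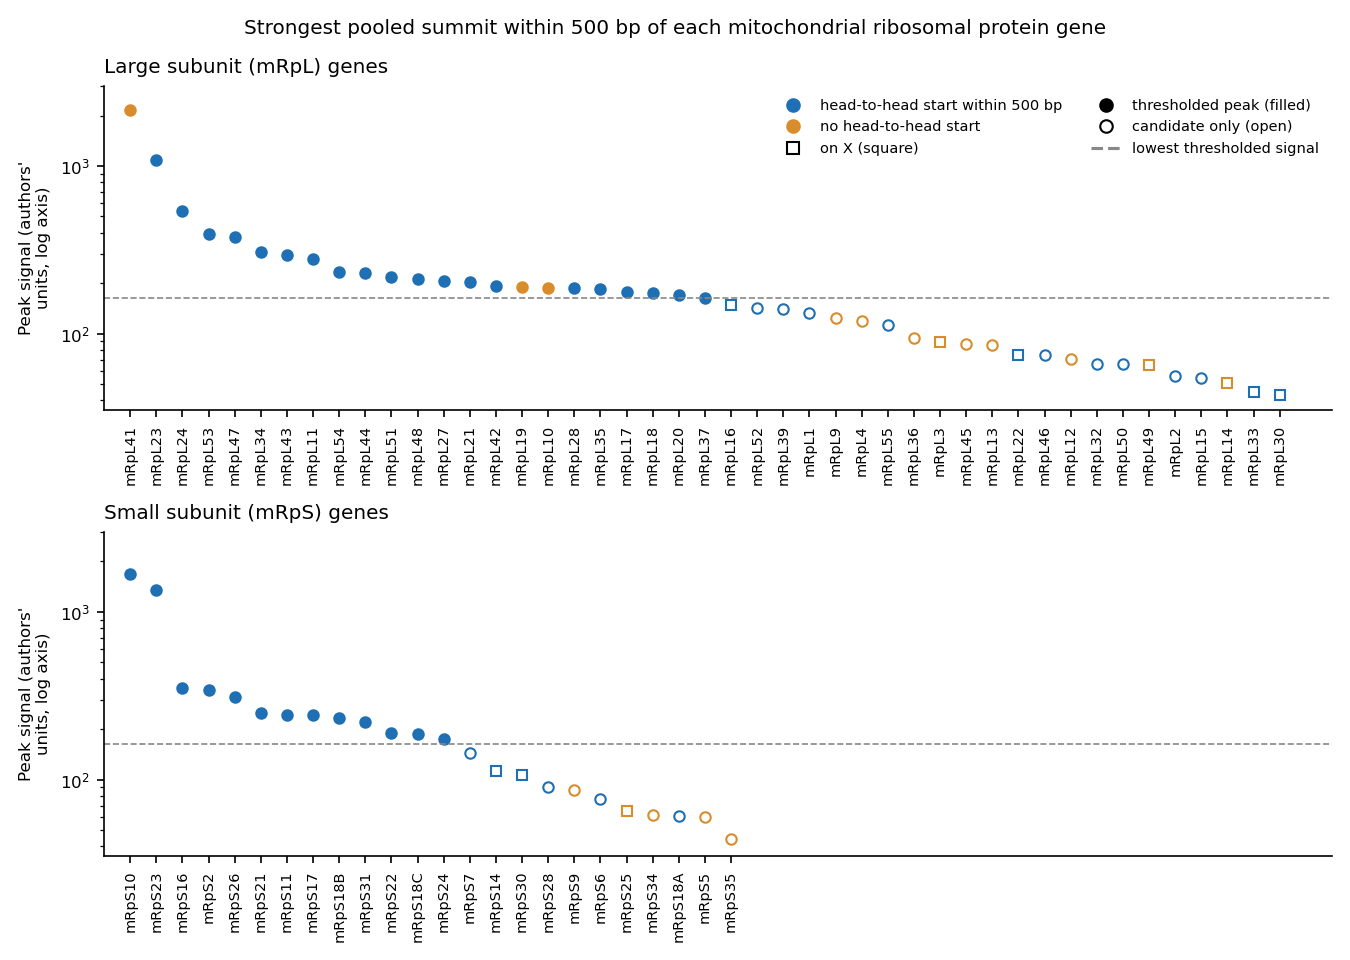
Pooled signal of the strongest summit within 500 bp of each mitochondrial ribosomal protein gene (authors' units, log axis), large subunit above and small subunit below, ordered by signal; filled points are thresholded, open points are candidates only, squares are genes on X and the dashed line is the lowest thresholded signal. After the 4 points above 1000 the filled points run down to the line, and no square is filled.

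Apart from a few strong sites the peaks were weaker than those of bound genes in general. The median signal of the 36 bound genes was 231 (quartiles 189 and 320, range 163.9 to 2149), against 268 for the 4191 bound protein-coding genes. Of the 36, 4 (11.1%) were among the 100 strongest thresholded peaks, against 92 of 4191 (2.2%), but 5 (13.9%) were among the 1000 strongest, against 736 (17.6%). The upper 3512 peaks of the list held 13 of the 36 (36.1%), against 2317 of 4191 (55.3%). The 4 strongest were mRpL41, mRpS10, mRpS23 and mRpL23, and the next was mRpL24 with 539.

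The 5 weakest bound genes were mRpL37 with a signal of 164, mRpL20 with 169.7, mRpS24 with 174.4, mRpL18 with 174.5 and mRpL17 with 177. The nearest other start belonged to Icmt, an isoprenylcysteine carboxyl methyltransferase, at mRpL20, to Apc2, a component of Wnt signalling, at mRpS24, to Taz, which encodes the cardiolipin-remodelling enzyme tafazzin, at mRpL18 and to the nuclease gene Tudor-SN at mRpL17. Just below the threshold of the list stood mRpL16 with 148, mRpS7 with 144, mRpL52 with 143 and mRpL39 with 139. The last of these, mRpL39, had rank 5679 in replicate 3 but 14329 in replicate 2.

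The 33 genes with only a candidate had signals from 43.0 to 148 with a median of 76.3, against a median of 95 for the 4235 protein-coding genes in the same position. No pooled candidate was listed at mRpL38, mRpL40, mRpS29 or mRpS33. mRpL38 had a candidate in replicate 2 at rank 17989, and mRpS29, which encodes a GTP-binding protein known in human cells as DAP3, had candidates at rank 29821 in replicate 2 and 21086 in replicate 3. mRpL40 and mRpS33 had none in any list. These lists hold a preset number of candidates, so a gene with none is one below that rank, not one shown to lack the protein.

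Each replicate alone gave a similar share. Among the 7025 highest candidates of replicate 2 were peaks at 32 of the 73 genes (43.8%), against 28.8% of protein-coding genes, and among those of replicate 3 peaks at 36 (49.3%), against 30.0%. The mean was 46.6 ± 3.87% (SD, n = 2), against 29.4 ± 0.908%. The SD is the spread between 2 libraries that share a control. It does not measure how sure the gap between the gene sets is. Both replicates placed 28 genes among their highest, all of them bound. Of the other bound genes 3 were among the highest of replicate 2 only, and 5 of replicate 3 only, and all 8 were large subunit genes.

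The largest differences in rank among bound genes were 3.96-fold at mRpL53, 3.02-fold at mRpL20 (rank 11938 in replicate 2 and 3952 in replicate 3), 2.58-fold at mRpL47, 2.49-fold at mRpL54 (6809 in replicate 2 and 2737 in replicate 3) and 2.04-fold at mRpL51 (3548 in replicate 2 and 7244 in replicate 3). The first 4 were stronger in replicate 3. Candidates lay in both replicate lists for 59 genes, and Spearman's rho of their signals was 0.833 across these genes, or 0.658 across the 36 bound ones. These correlations are descriptions across genes that share 2 libraries and a control, and the bound genes were selected from the pool of the same replicates.

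**Figure D2:**
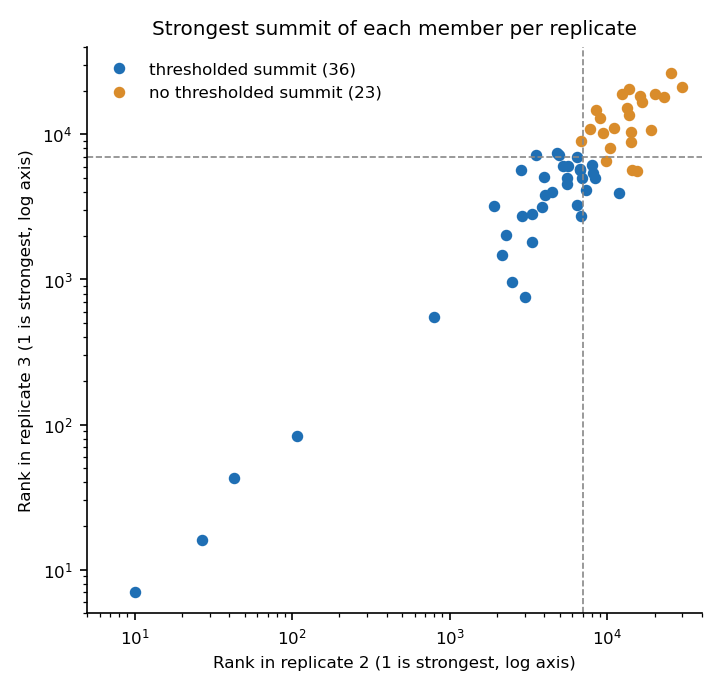
Rank of the strongest summit of each mitochondrial ribosomal protein gene in replicate 2 (horizontal) and replicate 3 (vertical), both log axes with 1 the strongest, for the 59 genes with a candidate in both lists; blue points are bound and dashed lines mark rank 7025. The 4 strongest genes have the same order in both replicates, near the lower left, and 28 genes lie below and to the left of both dashed lines.

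The summits lay upstream of the genes and mostly closer to another gene. In 34 of the 36 (94.4%) the summit was upstream of the gene's own nearest start, against 71.1% of bound protein-coding genes. The exceptions were mRpL23, at 60 bp downstream, and mRpL42, at 45 bp downstream. The median position was -140.5 bp (range -396 to 60), against -74 bp, and 12 summits (33.3%) lay within 100 bp of the start, against 46.5%.

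Another gene's start was closer to the summit in 27 of 36 (75%), against 976 of 4191 bound protein-coding genes (23.3%). This background is not matched for the number of starts or for head-to-head starts. Head-to-head starts were present at 91.7% of the bound genes, against 48.0% of bound protein-coding genes. The 9 genes whose own start was the closest were mRpL10, mRpL19, mRpL23, mRpL41, mRpL42, mRpL54, mRpS11, mRpS18B and mRpS22. By the annotation 25 summits lay between genes and 1 in a neighbour's intron. In the noncoding part of an exon lay 8 summits in a neighbour and 2 in the gene itself. At the 33 genes with only a candidate 18 summits were upstream, against 2697 of the 4235 protein-coding genes with only a candidate. The other 15 (45.5%) lay downstream of the start, 6 of them in coding and 7 in noncoding parts of exons of the gene.

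**Figure D3:**
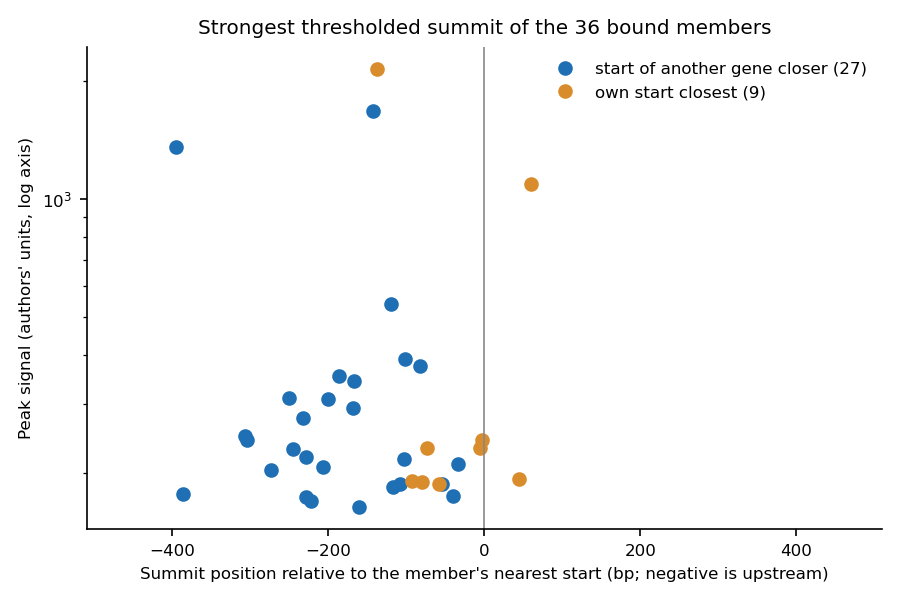
Position of the strongest thresholded summit of each of the 36 bound genes relative to the gene's own nearest start (bp, negative is upstream) against pooled signal (authors' units, log axis); blue points have another gene's start closer to the summit and orange points do not. The 27 blue points lie upstream, from -396 bp on, and the 9 orange points lie within 138 bp of the start.

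In head-to-head pairs 33 of 53 mitochondrial ribosomal protein genes were bound (62.3%, interval 48.8 to 74.1%), against 48.7% of protein-coding genes in such pairs. Without a head-to-head start 3 of 20 were bound (15.0%, interval 5.24 to 36%), against 22.2%. The 3 were mRpL10, which encodes the protein that anchors the ribosomal stalk, mRpL19 and mRpL41. The higher share was thus found among the head-to-head genes; among the rest the difference had the opposite sign, and the interval holds the share of protein-coding genes. Of the bound genes 91.7% were head-to-head, against 48.0% of bound protein-coding genes.

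In all 33 pairs the nearest other start was the head-to-head one, and it was closer than the gene's own in 27. The summit lay between the starts in 23 pairs, beyond the neighbour's start in 8 and downstream of the gene's own start in 2. A peak between such starts cannot be assigned to either gene from these lists. By subunit, 20 of 34 large and 13 of 19 small subunit genes in pairs were bound, whereas without a pair 3 of 13 large and 0 of 7 small subunit genes were. A count of 0 of 7 allows a share of up to 42.9%.

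The neighbours at bound pairs have mixed roles. Those named here in addition to the ones above were picked for their known roles after the values had been seen. A few also act in mitochondria: HtrA2, a protease, beside mRpL11 (signal 277), and Mitofilin, a component of the cristae-organizing complex, beside mRpL35 (184.0). Others act elsewhere, such as Snr1, a subunit of the Brahma chromatin remodeller, beside mRpL44 (231), Nop60B, a pseudouridine synthase of the nucleolus, beside mRpS17 (243), and reptin (rept), a chromatin-associated ATPase, beside mRpL21 (204.0). Among unbound genes mRpL55 shares its promoter region with ATPsynD, a subunit of ATP synthase, and had only a candidate with a signal of 113.

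**Figure D4:**
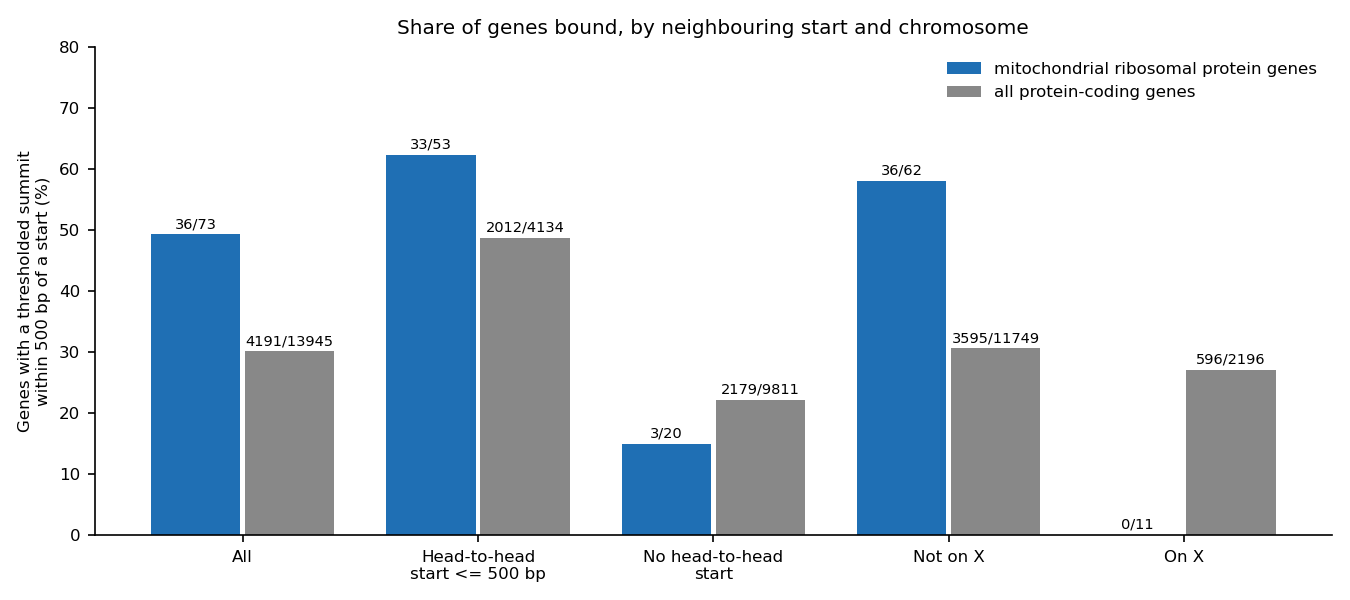
Share of bound genes (percent), for mitochondrial ribosomal protein genes (blue, left of each pair) and all protein-coding genes (grey), over all genes, by presence of a head-to-head start within 500 bp and by location on X; numbers above the bars are bound over all genes. The blue bar is the higher one over all genes, in head-to-head pairs and outside X, and the lower one without a head-to-head start and on X.

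None of the 11 genes on X was bound, whereas 27.1% of protein-coding genes on X were. The upper limit of the Wilson interval for 0 of 11 is 25.9%, and by 3 counts a share of up to 27.3% is allowed, so the share of protein-coding genes lies between these limits. The genes are mRpL3, mRpL14, mRpL16, mRpL22, mRpL30, mRpL33, mRpL38, mRpL49, mRpS14, mRpS25 and mRpS30. Of these 7 are in head-to-head pairs, where 45.1% of protein-coding genes on X were bound. For 0 of 7 the limits are 35.4% by the Wilson interval and 42.9% by 3 counts. These limits cover counting of genes only. The splits by X and by head-to-head starts were chosen after the data had been seen, so a difference from the 45.1% was not tested.

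In replicate 2 none of the 11 was among the 7025 highest candidates, against 26.3% of protein-coding genes on X, and in replicate 3 there were 2, against 27.5%. These were mRpL16, a counterpart of a bacterial large subunit protein, at rank 6580, and mRpL33 at rank 5603. Both are in head-to-head pairs. The replicate 3 summit of mRpL33 lay 362 bp upstream of its start, whereas its replicate 2 summit, at rank 15581, lay 275 bp downstream. Off X, 36 of 62 genes were bound (58.1%), against 30.6% of protein-coding genes, with 9 of 12 on 2L (75%, against 28.7%), 9 of 12 on 2R (75%, against 31.3%), 12 of 21 on 3R (57.1%, against 31.3%) and 6 of 17 on 3L (35.3%, against 30.9%).

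Few genes lay near the limit of 500 bp. The bound genes farthest from their summit were mRpS23 at 396 bp and mRpL17 at 387 bp. The nearest unbound ones were mRpS6 at 561 bp, mRpL2 at 685 bp and mRpL55 at 709 bp, and next came mRpS7 at 1402 bp.

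Other genes of mitochondrial gene expression had fewer or similar shares of peaks; their lists were chosen with results of these data known. Of 18 listed symbols of mitochondrial translation factors only 10 were found in the annotation, and 1 of these 10 was bound, the release factor gene mRF1, with a signal of 302. Another gene's start was closer to the mRF1 summit. Of 15 mitochondrial aminoacyl-tRNA synthetase genes, which charge the transfer RNAs used by this ribosome, 1 was bound, ArgRS-m, with 236. Neither of 2 further mitochondrial ribosome genes with other names was bound: tko, for a small subunit protein, had a pooled candidate with 153, and bonsai had none. In replicate 3 bonsai had a candidate at rank 11010.

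Among 15 genes of mitochondrial DNA and RNA maintenance 7 were bound (46.7%). These were SLIRP2 (signal 1034), mtSSB, for the single-stranded DNA binding protein (408), SLIRP1 (363), the transcription factor gene mtTFB2 (190.2), mtDNA-helicase (183), PolrMT, for the mitochondrial RNA polymerase (176), and mtTFB1 (167). At 3 of these 7 genes, SLIRP2, mtTFB2 and mtTFB1, another gene's start was closer to the summit. mtTFB1 had no candidate in replicate 2, and in replicate 3 its candidate had rank 29557. TFAM, which encodes the protein that packages mitochondrial DNA, was not bound and had a candidate with 96.6. Of 88 nuclear genes of the respiratory chain and ATP synthase 25 were bound (28.4%), with a median signal of 241, near the 30.1% of all protein-coding genes.

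The cytosolic ribosomal protein genes, which encode the proteins of the other ribosome of the cell, were set beside them. Of these 80 of 92 were bound (87.0%), with a median signal of 526, against 36 of 73 with a median of 231 for the mitochondrial set. Another gene's start was closer to the summit at 4 of the 80, against 27 of the 36, and head-to-head starts were present at 38 of 92, against 53 of 73. On X 14 of 14 were bound, against 0 of 11. These are counts over 2 lists, given without a test.

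Core promoter motifs were searched in the window 250 bp before to 50 bp after the start, on both strands except for the TATA box and the initiator, which were read on the gene's strand. For genes with a pooled candidate the start was the one nearest the strongest summit, and otherwise the most upstream one. With several starts the window thus depends on the peaks. The DNA replication-related element (DRE, TATCGATA), a motif of many housekeeping promoters bound by the factor Dref, was in 15 of the 73 promoters (20.5%), against 8.97% of protein-coding promoters. It lay within 50 bp of the start in 14 of the 15 (93.3%), against 58.3% of 1251. A match is a description of the letters only.

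In this set the DRE was not more frequent at bound promoters. It was in 6 of 36 bound promoters (16.7%) and in 9 of 37 unbound ones (24.3%), whereas among protein-coding genes it was in 12.7% of bound and 7.37% of unbound promoters. Head-to-head genes of the set had it in 8 of 53 (15.1%), against 15.9% of head-to-head protein-coding genes, and the others in 7 of 20 (35%), against 6.04%. The element is shown with its surroundings, 50 bases before to 20 bases from the start on the strand of the gene, at 3 bound genes (mRpL10, mRpL19, mRpS18B) and 3 unbound ones (mRpL39, mRpL16, mRpL3), with the DRE in capitals. mRpS18B and mRpL39 are on the minus strand and the other 4 on the plus strand, in build dm6.
mRpL10, chr2L:203729-203798: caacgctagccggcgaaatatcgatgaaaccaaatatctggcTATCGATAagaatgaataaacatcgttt
mRpL19, chr3R:8674059-8674128: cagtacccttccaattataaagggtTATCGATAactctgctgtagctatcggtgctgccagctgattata
mRpS18B, chr2L:20097234-20097303: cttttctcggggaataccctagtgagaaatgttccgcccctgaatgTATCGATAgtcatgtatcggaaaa
mRpL39, chr3L:14999647-14999716: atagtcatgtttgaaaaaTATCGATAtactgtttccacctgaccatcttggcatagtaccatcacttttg
mRpL16, chrX:1890206-1890275: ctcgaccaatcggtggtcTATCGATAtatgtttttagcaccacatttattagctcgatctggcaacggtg
mRpL3, chrX:15761198-15761267: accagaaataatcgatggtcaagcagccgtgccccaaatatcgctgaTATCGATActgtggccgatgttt
Counting the start as position 1, the first base of the DRE stood at -8 in mRpL10, -25 in mRpL19, -4 in mRpS18B, -32 in mRpL39, -32 in mRpL16 and -3 in mRpL3. Further bound genes with the DRE were mRpL17 (-4), mRpL20 (-10) and mRpS23 (-209 and -9), and further unbound ones mRpL12 (24), mRpL22 (-73), mRpL32 (-27), mRpL4 (20), mRpS25 (-41) and mRpS29 (-2). The 396 bp between the mRpS23 summit and its start thus hold a DRE close to the start and another at -209.

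The Motif 1 core GGTCACACT was in 8 of 73 promoters (11.0%), against 5.82%, and within 50 bp of the start in all 8, against 71.7%. The bound ones were mRpL27 (28), mRpL48 (-20), mRpS16 (-19) and mRpS21 (27), and the unbound ones mRpL13 (24), mRpL22 (39), mRpL55 (4) and mRpS30 (24). The longer Motif 1 was in 6 promoters (8.22%, against 4.31%), Ohler motif 6 in 3 (4.11%, against 2.07%) and Ohler motif 7 in 17 (23.3%, against 9.32%). Ohler motif 7 was in 30.6% of the bound promoters, against 14.9% of bound protein-coding promoters. Among head-to-head genes only, the Motif 1 core was in 13.2% of the set, against 10.6%, and the longer Motif 1 in 9.43%, against 7.86%. Ohler motif 6 was there in 3.77%, against 3.8%, and Ohler motif 7 in 24.5%, against 16.9%.

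The remaining motifs are given beside the same background. The initiator, which reads TCA followed by G or T, then T, then C or T, was in 35.6% of the promoters, against 44.4%, the TATA box TATAAA in 30.1%, against 31.6%, CTTATC in 19.2%, against 19.6%, and GATAA, which overlaps it on the other strand, in 56.2%, against 55.3%. GAGAG was in 15.1%, against 31.1%. The E-box CACGTG was in 6.85%, against 4.2%, and CGATA, which every DRE contains, in 58.9%, against 47.3%. The sign for CGATA depended on the genes compared. Head-to-head genes of the set had it in 52.8%, against 60.3%, and the others in 15 of 20, against 41.8%. Bound promoters of the set had it in 18 of 36, against 55.9% of bound protein-coding promoters. Unbound ones had it in 67.6%, against 43.6%.

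**Figure D5:**
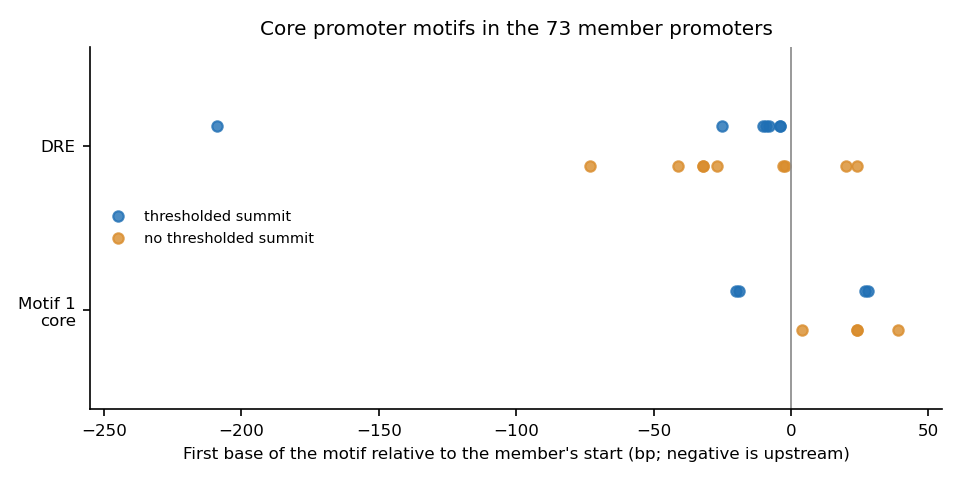
First base of each DRE and Motif 1 core relative to the start (bp, negative is upstream) in the promoters of the 73 mitochondrial ribosomal protein genes, in bound genes (blue, upper row of each motif) and in genes without a thresholded summit (orange, lower row). Apart from a DRE at -209 in mRpS23 and 1 at -73 in mRpL22 the matches lie within 50 bp of the start in both rows.

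Around the summits themselves, within 100 bp on each side, the 36 windows of the set were compared with the 3244 windows of all bound protein-coding genes. Ohler motif 7 was in 22.2%, against 8.51%, and CGATA in 55.6%, against 41.6%. CTTATC was in 13.9%, against 19.7%, GATAA in 44.4%, against 48.5%, and GAGAG in 13.9%, against 28.9%. The DRE was in 8.33% of the windows, against 6.17%, and the Motif 1 core in 5.56%, against 3.45%. With 36 windows, 1 window is 2.78%, so most of these differences rest on a few sites.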

How the data were processed

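Chromatin from 2 embryo samples was profiled by ChIP-seq; the labels call them biological replicates 2 and 3, and they were analysed as 1 group. The authors deposited peak lists on build dm6: candidates per replicate, candidates of the pool, and a set thresholded by the irreproducible discovery rate, per the labels. Each deposited line holds a peak signal in the authors' own units and, by the list format, the −log10 of a q-value, which was read but is not reported. Neither aligner nor peak caller is given in the sources used here. Read depth is unknown, so the Wilson intervals (95%) and the limits for a count of 0 (3 counts) cover counting of genes only. Signal was used within a list only.

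Summits were assigned with Python 3.11.15, pandas 2.3.3, numpy 2.4.6 and scipy 1.17.1 to every start within 500 bp among 23998 starts of 18164 Ensembl release 115 genes. The 5809 transposable-element genes were left out. Summit offsets that pointed past the interval in 2 thresholded lines were set to its last base. The assignment was tested on simulated summits placed at known distances. The background is all protein-coding genes, with no p-value, since the genes and lists were chosen with earlier results of these data known. For each replicate the 7025 strongest candidates were treated as the thresholded list. Each line counted as 1 peak, and merging overlapping intervals gave 6272 regions. Motifs were matched exactly to the Release 6 sequence (RefSeq).

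The genes named are the 12 strongest, the 5 weakest bound, the 5 with the largest ratio of replicate ranks, those without a candidate, those beside both limits, the 5 strongest with a head-to-head neighbour, those with a DRE or Motif 1 core, and CG34376. Other genes, among them mRpL11, mRpL35, mRpL44, mRpS17 and mRpL21, were named after their values were seen, for their neighbours or to spell out a count. Alternatives changed the replicate used, the distance, the threshold, the overlap rule, nearest start only, the starts, merging of intervals, the background and the motif window; leaving out X and splitting by head-to-head starts were chosen after seeing the data. Of the listed symbols, 8 of translation factors, 1 of maintenance genes and 1 of further ribosome genes had no match under that name. A symbol without a match can be another name of a gene analysed here, as DAP3 is for mRpS29. The neighbour of 1 bound gene is not reported here.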

Additional observations from a re-analysis of the deposited data

How the results depend on the processing

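With 36 of 73 genes bound, 19.3 percentage points above protein-coding genes, leaving out either replicate gave 32 to 36 genes and 15.1 to 19.3 points. It gave 19 to 23 large subunit genes (23 in the full data), 13 to 13 small subunit genes (13), 28 to 34 summits upstream of the own start (34), 21 to 25 nearer another gene (27) and a median percentile of the signal within the list of 43.5 to 44.4 (41.9). A distance of 200 bp gave 23 genes bound, 7.7 points, 7 small subunit genes, 14 nearer another gene and 21 upstream. The upper 3512 peaks gave 13 bound, 1.2 points, 8 large and 5 small subunit genes, 11 nearer another gene, 12 upstream and a percentile of 56.2; the 1000 strongest peaks gave 5, 1.6 points, 3, 2, 3, 4 and 96.2 in the same order. Both have fewer peaks by construction. Counting a summit only for the nearest start gave 9 bound, 6 large and 3 small, 7 upstream and 0 nearer another gene, and turned the difference to -11.4 points (12.3%, against 23.7%). The difference was 2.4 points among genes with a candidate, 23.7 against all genes used, 27.5 without X, 13.6 for head-to-head genes (13.9 with a limit of 1000 bp) and -7.2 for the rest (-7.1). With 1 summit per merged region the percentile was 39.6. A distance of 1000 bp, interval overlap and protein-coding starts moved no count by over 1.5 times, and the DRE count stayed at 15 to 16. No paired analysis was possible because the replicates form 1 group. Depth is unknown; 73 genes and 2 libraries sharing a control limit every share, and the labels' conflict over input control cannot be settled from these lists.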
